A study of Drosophila melanogaster with 8 samples.

Results

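The genes described here build the contractile machinery of Drosophila muscle: actins, myosin light chains, the tropomyosin and troponin switch, the giant elastic proteins, Z-disc proteins and the calcium pump and release channel. A list of 33 genes was matched to the probe sets that carry exactly 1 gene symbol in the probe annotation. It found 45 probe sets of 26 genes, among 18769 probe sets on the array, with 16 genes on 1 probe set and 10 on several. Unc-89 and Argk were matched under their current names Obsc and Argk1. The other 7 genes, Act57B, Mhc, Tm1, wupA, TpnC47D, TpnC25D and Mef2, were not analysed here. RNA was compared on 8 arrays from 4-day-old mated adult females, 2 arrays for each of 4 groups: wild-type spermathecae, Hr39(04443) spermathecae, wild-type lower reproductive tract and Hr39(04443) lower reproductive tract, the tract without its spermathecae. The labels name neither the wild-type strain nor the number of females dissected, so differences between the genotypes may include differences of strain background, which was not tested. They call the second array of each group a duplicate and do not say that it came from other animals. The p-values below therefore measure only the spread between these arrays, which may be technical.

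Muscle contracts when calcium, released through the ryanodine receptor and taken up again by SERCA, binds troponin C and lets myosin heads pull on actin thin filaments. The filaments are anchored in Z-discs by alpha-actinin and Zasp proteins, and titin-like giants such as bt and sls span the sarcomere. Visceral muscle of the fly is striated and uses these same proteins. In the female tract it sheathes the oviducts and uterus and drives ovulation and egg laying, while the spermathecae consist largely of secretory epithelium that surrounds a cuticle-lined capsule. The mutated gene, Hr39, codes for an orphan nuclear receptor of the SF-1 and LRH-1 family.

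Each value is the MAS5 signal of a probe set on 1 array, in linear units. Differences were taken as log2 after 4 was added to each signal, are given with their standard error (SE), and folds come from them. Adjusted p-values come from limma with Benjamini-Hochberg adjustment over the 10113 probe sets that passed a filter on dim signals, and a probe set is called at an adjusted p below 0.05. Of the 45 muscle probe sets 41, from 25 genes, passed the filter. Hr39 itself, on probe set 1630002_s_at, read 821 and 725 in wild-type spermathecae, 477 and 452 in mutant spermathecae, 73.3 and 88.2 in the wild-type lower tract and 59.6 and 65.4 in the mutant lower tract. It was lower in mutant spermathecae by a log2 difference of -0.73 (SE 0.177, adjusted p = 0.0351) and was not called in the lower tract, and the other 3 probe sets of the gene were not called in either organ. A pair of arrays stood apart. On wild-type lower tract replicate 1 the summed signal of 11 germline probe sets was 3584, against 643 to 949 on the other lower tract arrays. On wild-type spermathecae replicate 1 the control probe sets for Act5C gave a ratio of 3' over 5' signal of 24.9, a measure of RNA integrity, while the other 7 arrays gave 3.56 to 4.80. The same ratio for Gapdh was 5.87 against 2.46 to 4.05, and for eIF4A it was 3.17, within the 2.75 to 3.35 of the others. Results are given with and without these arrays where they change.

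In wild-type females the muscle genes were lower in the spermathecae than in the lower tract. With no filter on dim signals, 37 of the 45 muscle probe sets were called lower in the spermathecae and 0 higher, where 10.6% of all 18769 probe sets were called lower. Of the 41 that passed the filter 0 were called higher, also before adjustment at p below 0.05, and 40 were called lower, beside 21.5% of the 10113 tested. The median log2 difference was -3.09 for the 41 and 0.07 for all tested. In whole organs, fewer muscle cells and less RNA per muscle cell cannot be told apart. Over both genotypes, all 4 spermatheca arrays lay below all 4 lower tract arrays on 38 of the 45 probe sets, against 13.3% of the 18769. The summed signal of the 45 was 18760 to 20148 on the spermatheca arrays and 124407 to 146924 on the lower tract arrays. The 40 calls became 36 without wild-type lower tract replicate 1, 39 without wild-type spermathecae replicate 1, and 37 without both.

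**Figure D1:**
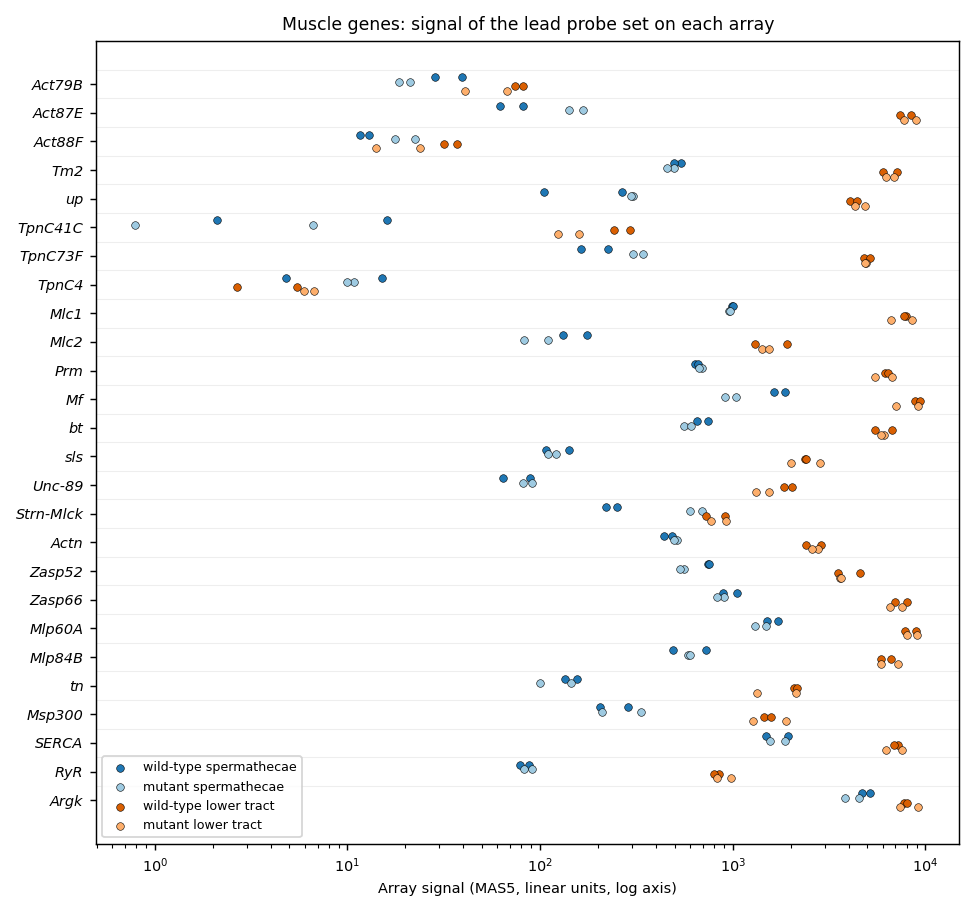
Signal of the brightest probe set of each of the 26 muscle genes on each of the 8 arrays (MAS5 units, log axis), coloured by genotype and organ. All 4 spermatheca arrays lie to the left of all 4 lower tract arrays except for Act88F and TpnC4.

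The thin filament genes had log2 differences from -6.71 to -1.11, and the widest gap of all tested muscle probe sets was that of Act87E. Act87E, a muscle actin, read 61.9 and 81.9 in wild-type spermathecae and 7370.1 and 8464 in the wild-type lower tract. These groups lie far apart, and the log2 difference of -6.71 (SE 0.176, adjusted p = 1.25e-08) is 105-fold. This probe set carries the suffix for probes shared between transcripts, so closely similar actin genes may contribute to it. The troponin T gene up read 105 and 266 against 4069 and 4399 (log2 -4.62, SE 0.327, adjusted p = 2.54e-06). TpnC73F, a troponin C, read 163 and 226 against 4797 and 5158 on its brighter probe set (log2 -4.66, SE 0.171, adjusted p = 6.68e-08). The tropomyosin gene Tm2 read 542 and 493 against 6015 and 7118, a 12.6-fold difference (log2 -3.65, SE 0.148, adjusted p = 8.78e-08). None of these groups overlap. TpnC41C, a troponin C of adult muscle, read 2.10 and 16 against 243 and 292, so its difference of -4.61 (SE 0.551, adjusted p = 9.89e-05) depends on the value added: it was -5.52 with none and -3.34 with 20.

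The actins and the troponin C best known from flight and leg muscle were dim in both organs. Act79B, an actin of tubular muscle in the leg and elsewhere, read 39.5 and 28.6 in wild-type spermathecae and 81.1 and 73.9 in the wild-type lower tract (log2 -1.11, SE 0.325, adjusted p = 0.0194). Act88F, the flight muscle actin, read 11.6 and 13.0 against 31.6 and 37.0 (log2 -1.23, SE 0.379, adjusted p = 0.0246). These calls were lost under 6 and 7 of 17 alternatives, among them no filter, quantile normalization and leaving out either wild-type lower tract array. Act88F passed the filter only through the wild-type lower tract. TpnC4, the troponin C of stretch-activated flight muscle, read 2.67 to 15.1 on the 8 arrays, below the array medians of 17.7 to 22.5, and was not tested.

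The thick filament genes lay in a narrower band. Mlc1, the muscle essential light chain of myosin, read 997 and 999 in wild-type spermathecae against 7891 and 7772 in the lower tract, 7.82-fold lower (log2 -2.97, SE 0.153, adjusted p = 2.86e-07). Mlc2, the regulatory light chain, read 131 and 175 against 1298 and 1909 (log2 -3.34, SE 0.228, adjusted p = 2.04e-06). Prm encodes paramyosin and miniparamyosin of the filament core. It was lower by 9.65-fold on probe set 1628105_a_at (640.3 and 657 against 6187 and 6407) and by 17.3-fold on 1632854_s_at (419 and 298 against 6222 and 6161). The probe sets of Prm thus gave log2 differences of -3.27 (SE 0.145) and -4.11 (SE 0.206), both called. Mf, the thick filament protein myofilin, was lower on both probe sets and is described with the mutant below.

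The giant protein genes were lower on 6 of their 7 tested probe sets. The projectin gene bt read 653 and 742 against 5495 and 6684 (log2 -3.12, SE 0.152, adjusted p = 2.04e-07). The 3 probe sets of sls, a titin-like gene that also encodes kettin, had log2 differences of -4.23, -3.77 and -3.44, all called. Unc-89, the fly obscurin of the M-line, read 88.9 and 64.2 against 2039.6 and 1855 on the probe set that passed the filter (log2 -4.61, SE 0.186, adjusted p = 8.78e-08). Its other probe set read 1.25 to 24.6 on the 8 arrays and was not tested. Strn-Mlck, which encodes titin-like and myosin light chain kinase proteins, showed the smallest gap of the giants. On its brightest probe set, 1634574_a_at, it read 250.0 and 219 against 730.1 and 909.8 (log2 -1.78, SE 0.173, adjusted p = 2.38e-05). Its probe set 1624063_at, the 1 tested muscle probe set not called lower in wild type, read 33.1 and 36.2 against 27.6 and 37.4, which overlap (log2 0.09, SE 0.345, adjusted p = 0.849).

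The Z-disc and LIM protein genes were lower on all 10 of their tested probe sets, with log2 differences from -3.99 to -1.52. Actn, which encodes alpha-actinin, read 486 and 440.2 against 2393 and 2870.3 (log2 -2.49, SE 0.147, adjusted p = 7.15e-07). Zasp52, a PDZ and LIM protein of the Z-disc, read 747 and 753 against 3526 and 4587 (log2 -2.42, SE 0.155, adjusted p = 1.32e-06), and the related Zasp66 had differences of -3.99, -3.16 and -2.93 on its 3 probe sets. The muscle LIM protein Mlp84B read 724 and 488 against 5907 and 6637 (log2 -3.39, SE 0.196, adjusted p = 6.04e-07). Its partner Mlp60A read 1503 and 1725 against 7851 and 8913 on its bright probe set (log2 -2.37, SE 0.156, adjusted p = 1.59e-06). The gene tn, a TRIM protein needed to keep myofibrils intact, read 155 and 135 against 2069 and 2155 (log2 -3.83, SE 0.24, adjusted p = 1.13e-06).

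The calcium, anchoring and energy genes had the smallest median gap of the role groups, -2.46 over 10 tested probe sets. RyR, the ryanodine receptor, read 78.4 and 87.2 in wild-type spermathecae against 847 and 803 in the lower tract (log2 -3.26, SE 0.165, adjusted p = 2.56e-07). The calcium pump gene SERCA, which every cell uses, was lower by less: 1946 and 1492 against 7239.8 and 6853 on its brightest probe set (log2 -2.04, SE 0.18, adjusted p = 1.19e-05), with -2.79 and -1.36 on the other 2. The nuclear anchor gene Msp300, a giant nesprin, had differences from -3.55 to -1.60 on 5 tested probe sets, and its sixth probe set read 1.18 to 11 on the 8 arrays and was not tested. Argk, the arginine kinase that buffers ATP in muscle and in other tissues, stood at 5155 and 4675 against 7728 and 8004. Its gap of -0.68 (SE 0.165, adjusted p = 0.00792) was the smallest among the brightest probe sets of the 25 tested genes.

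The mutant organs showed the same gap. Of the 41 probe sets 38 were called lower in mutant spermathecae than in the mutant lower tract, beside 21.5% of all tested, and 36 of 45 with no filter, beside 11.0%. The median difference was -3.15, against 0.14 for all tested. The wild-type and mutant organ comparisons share no array, but the spread used for both was estimated over all 8 arrays. Called lower in both were 38 probe sets. The organ differences of the genotypes lay within 0.5 of each other for 28 of the 41. The 3 not called in the mutant were 1634574_a_at and 1624063_at of Strn-Mlck and Act88F, whose mutant readings of 22.5 and 17.6 in spermathecae and 23.8 and 14.0 in the lower tract overlap.

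**Figure D2:**
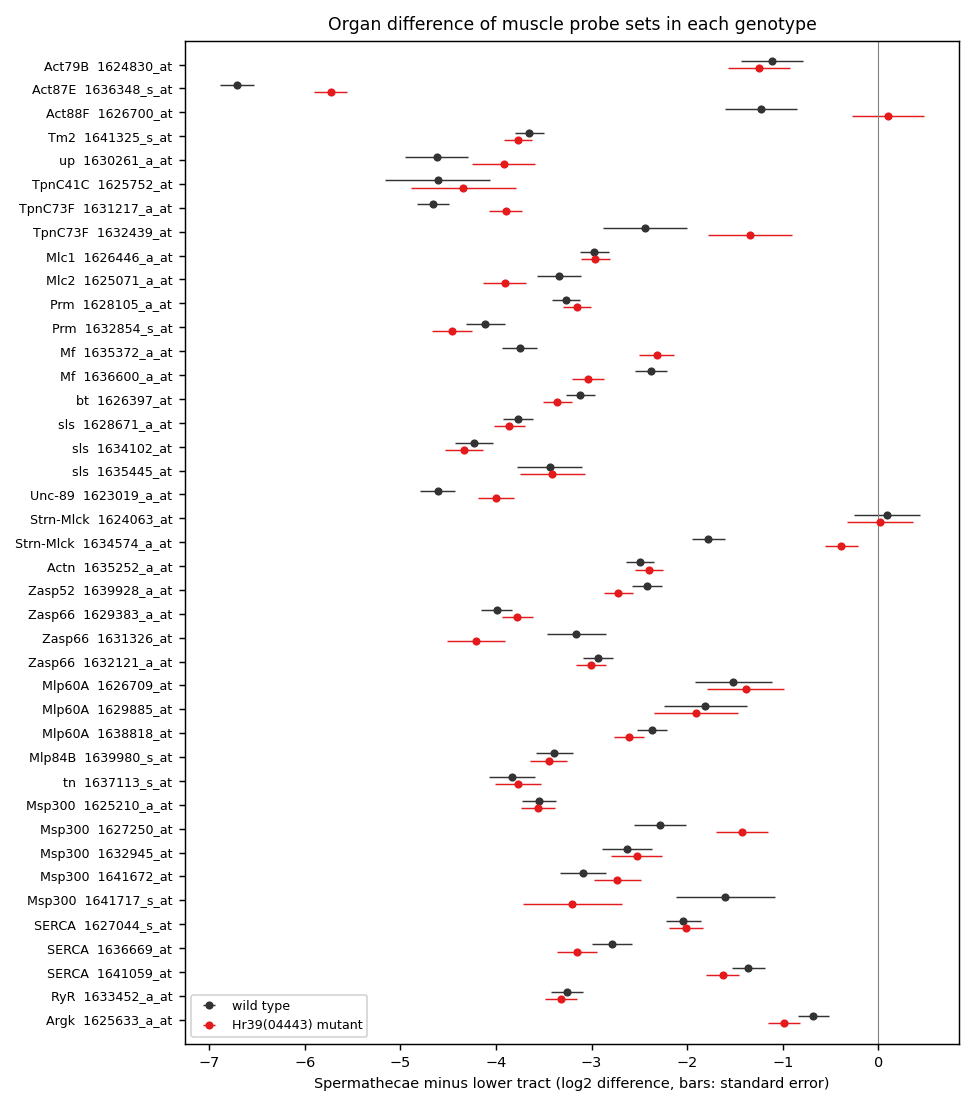
Log2 difference between spermathecae and lower tract (x axis, bars are the standard error) for the 41 tested muscle probe sets, in wild type (dark) and mutant (red). Values below 0 mean less signal in the spermathecae; the genotypes lie within 0.5 of each other for 28 of the 41, and Mf on 1635372_a_at, Strn-Mlck on 1634574_a_at and Act88F are among those farther apart.

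In the lower tract the Hr39 mutation left most muscle probe sets uncalled. Of the 41, 3 were called higher in the mutant and 0 lower, beside 2.47% and 3.33% of all tested, and the median difference was 0.02. Before adjustment 5 were higher and 1 lower at p below 0.05. None of the 3 was the brightest probe set of its gene, and over the brightest probe sets of the 25 tested genes the differences ran from -0.90 to 0.13. Several intervals are narrow. The 95% interval was -0.33 to 0.33 for Tm2, -0.37 to 0.27 for the brighter Prm probe set, -0.30 to 0.36 for Actn and -0.36 to 0.32 for bt. It was wider for up, from -0.61 to 0.85, and for TpnC41C, from -2.14 to 0.33. The lower tract signals of several members lie near the highest on those arrays, at up to 8825 to 11668 where the highest of all probe sets were 10778 to 12858. On the spermatheca arrays the highest of all probe sets were 17429 to 24226. Differences among the brightest lower tract signals may be compressed, which was not tested.

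The 3 probe sets called in the lower tract belong to Mf, Mlp60A and Zasp66. Mf on 1635372_a_at read 3512 and 4534 in wild type and 11668 and 9184 in the mutant, 2.59-fold higher (log2 1.37, SE 0.184, adjusted p = 0.00197). Zasp66 on 1631326_at read 109.7 and 177 in wild type and 414 and 336 in the mutant (log2 1.39, SE 0.306, adjusted p = 0.0268). Mlp60A on 1626709_at read 24.9 and 11.4 in wild type and 63.6 and 71.9 in the mutant (log2 1.76, SE 0.403, adjusted p = 0.0318). The genotypes do not overlap on any of the 3, yet the brightest probe sets of the same genes were not called. Their differences were -0.18 for Mf on 1636600_a_at, -0.08 for Zasp66 on 1632121_a_at and 0.03 for Mlp60A on 1638818_at. Leaving out wild-type lower tract replicate 1 gave 2, with the Zasp66 call lost, and leaving out either mutant lower tract array gave 1. The Mlp60A call was lost under 7 of 17 alternatives, among them no filter. That probe set passed the filter only through the mutant groups.

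In the spermathecae 6 of the 41 muscle probe sets were called higher in the mutant and 1 lower, beside 4.04% and 3.89% of all tested. The median difference was 0.02 for the 41 and 0.02 for all tested. Before adjustment 10 were higher and 4 lower at p below 0.05. The 6 were probe sets of Mf, Strn-Mlck, Act87E, TpnC73F, Msp300 and Mlp60A, and the 1 was the brightest probe set of Mf. The Mlp60A probe set passed the filter only through mutant groups. With no filter 4 of 45 were called higher and 1 lower, and the Mlp60A and TpnC73F calls were lost. Without wild-type spermathecae replicate 1, the array with the raised Act5C ratio, 3 were higher and 0 lower. Without both arrays that stood apart, 4 were higher and 1 lower, where the 1 lower was Mlc2 and the Mf fall was not called (adjusted p = 0.0586 for Mf on 1636600_a_at). Leaving out mutant spermathecae replicate 1 gave 2 higher and 0 lower, replicate 2 of that group 3 and 0, and leaving out wild-type spermathecae replicate 2 gave 2 lower.

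**Figure D3:**
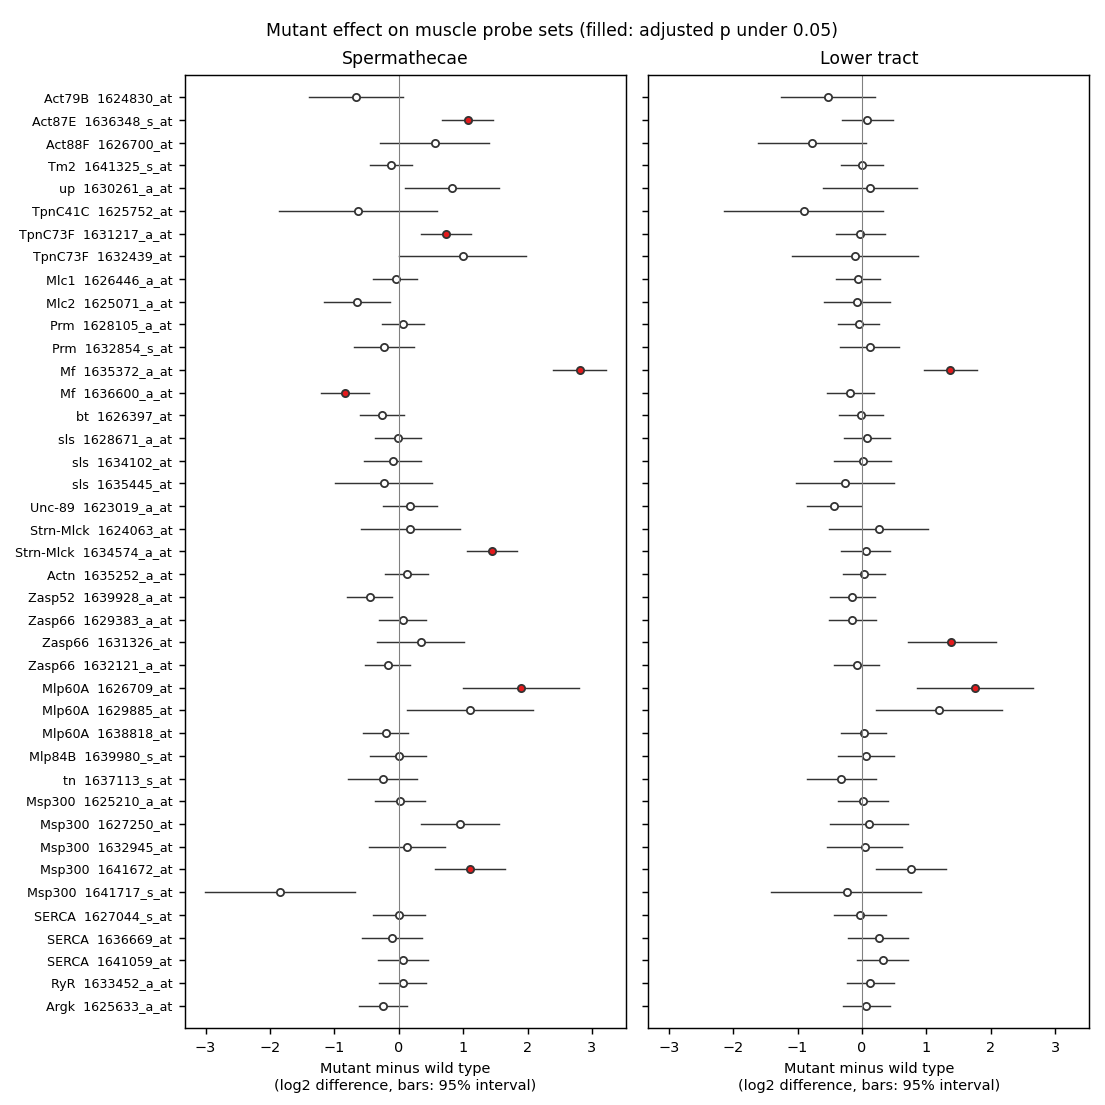
Log2 difference between mutant and wild type for the 41 tested muscle probe sets in the spermathecae (left) and the lower tract (right), with 95% intervals. Filled points have an adjusted p below 0.05: 7 on the left and 3 on the right, while most others lie near 0.

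The probe sets of Mf moved in opposite directions in mutant spermathecae. On 1635372_a_at the signal was 319 and 268 in wild type and 1966 and 2187 in the mutant, a 7-fold rise (log2 2.81, SE 0.184, adjusted p = 1.5e-05). On 1636600_a_at it was 1868 and 1636 in wild type and 1038 and 917 in the mutant, a fall by 0.84 (SE 0.167, adjusted p = 0.0133). The genotypes do not overlap on either. The fall lost its call under 5 of 18 alternatives, which include leaving out wild-type spermathecae replicate 1 or either mutant spermatheca array, and the rise kept its call under every alternative tried. On 1635372_a_at wild-type spermathecae stood 13.5-fold below the wild-type lower tract and mutant spermathecae 4.98-fold below the mutant lower tract. On 1636600_a_at the gap was 5.20-fold in wild type and 8.21-fold in the mutant. Both probe sets carry the suffix for probes that match several transcripts of the same gene, and which Mf transcripts each one detects was not analysed here.

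Strn-Mlck was called in the spermathecae and not in the lower tract. On 1634574_a_at mutant spermathecae read 689 and 602, against 250.0 and 219 in wild type, a 2.72-fold rise (log2 1.45, SE 0.173, adjusted p = 0.000785). In the lower tract the mutant read 925 and 776 and wild type 730.1 and 909.8, and these overlap (log2 0.06, SE 0.173, adjusted p = 0.93). The mutant spermathecae thus came within 1.31-fold of the mutant lower tract (log2 -0.39, SE 0.173, adjusted p = 0.0896), and that gap was called in a fit of only the 4 arrays compared and without both arrays that stood apart. The probe set 1624063_at of the same gene was dim and even, from 27.6 to 50.4 on the 8 arrays, with differences of 0.18 and 0.26 between the genotypes. The third, 1630501_a_at, read 4.34 to 13.1 and was not tested.

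**Figure D4:**
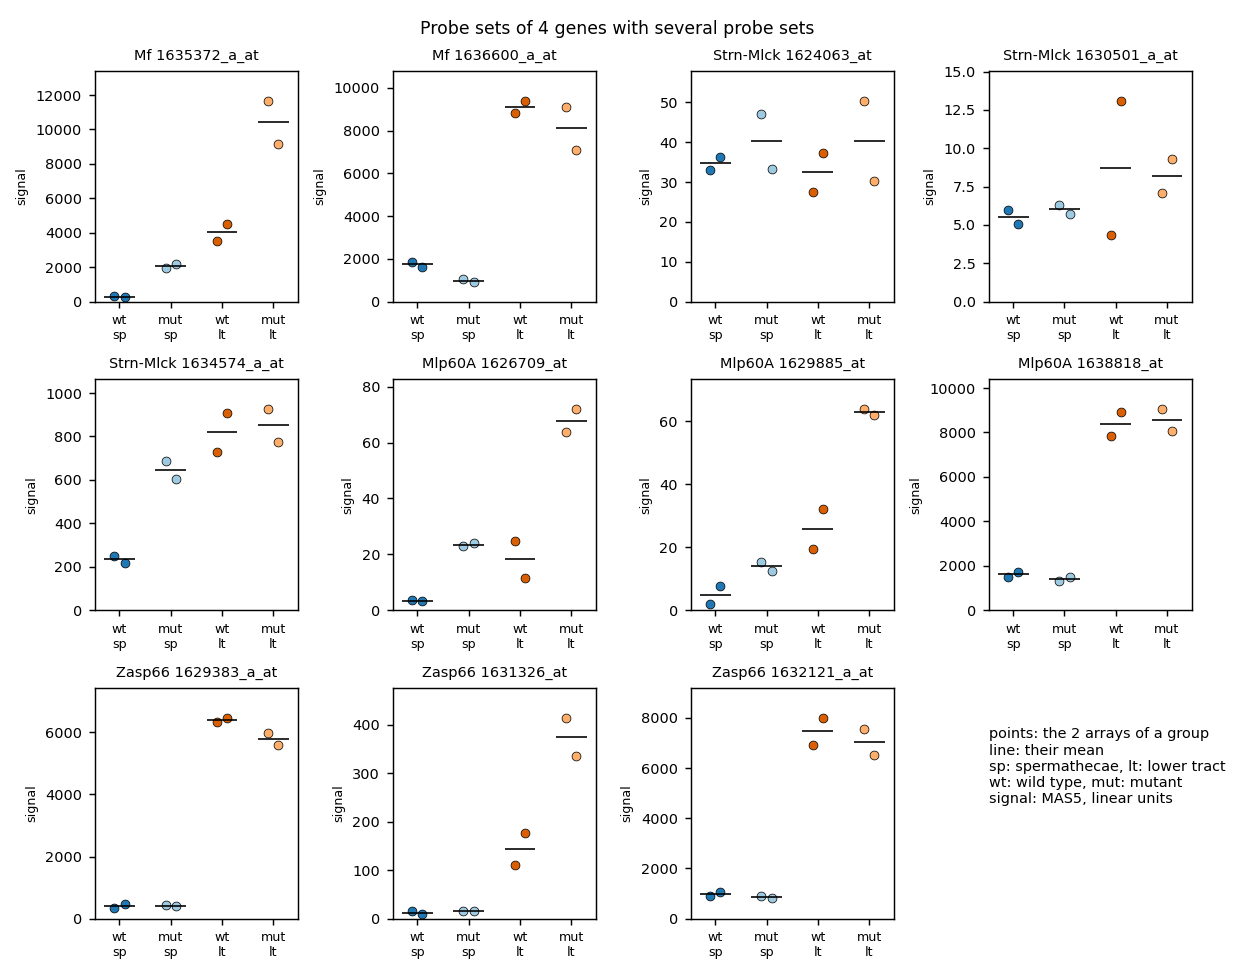
Signal (linear axis from 0) of each probe set of Mf, Strn-Mlck, Mlp60A and Zasp66 on the 2 arrays of each group, with the group mean as a line. The Mf probe sets show opposite genotype differences in the spermathecae, and the bright probe sets of Mlp60A and Zasp66 show none that was called while 1 dim probe set of each does.

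The remaining calls in mutant spermathecae were of thin filament genes, Msp300 and Mlp60A. Act87E rose from 61.9 and 81.9 to 167 and 141, 2.10-fold (log2 1.07, SE 0.176, adjusted p = 0.00516), and lost its call only without mutant spermathecae replicate 1 (adjusted p = 0.0572). TpnC73F rose from 163 and 226 to 344 and 304 (log2 0.74, SE 0.171, adjusted p = 0.0284). That call was lost under 10 of 18 alternatives, with adjusted p from 0.0502 to 0.176. The thin filament gene up read 305 and 297 in the mutant against 105 and 266 in wild type, without a call (log2 0.83, SE 0.327, adjusted p = 0.172). For Act87E, TpnC73F and up the lowest of the 8 readings was on wild-type spermathecae replicate 1. Without that array the TpnC73F difference in the spermathecae was 0.51 and lost its call. The part of RNA quality in the differences of these 3 genes was not tested. Other thin filament genes gave no call: Tm2 differed by -0.12 (95% interval -0.45 to 0.21), Act88F by 0.56 and Act79B by -0.66.

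The last 2 calls fell on probe sets that were not the brightest of their genes. Msp300 on 1641672_at read 33.7 and 57.7 in wild-type and 103 and 97.9 in mutant spermathecae (log2 1.11, SE 0.242, adjusted p = 0.0212). That call was lost under 6 of 18 alternatives, among them leaving out wild-type spermathecae replicate 1. In the lower tract the probe set read 422 and 391 in wild type and 774 and 614 in the mutant, without a call (log2 0.76, adjusted p = 0.123). The genotypes overlap in neither organ. The brightest probe set of Msp300 differed by 0.13 and 0.04 in spermathecae and lower tract, and 1641717_s_at by -1.85 in spermathecae without a call (adjusted p = 0.0615). Mlp60A on 1626709_at read 3.52 and 3.20 in wild-type and 23.0 and 23.9 in mutant spermathecae (log2 1.90, SE 0.403, adjusted p = 0.0185), and without an added value or with 20 the difference was 2.80 and 0.89. That call was lost under 4 of 17 alternatives, among them leaving out wild-type spermathecae replicate 1, where the difference was 1.93. Its other dim probe set, 1629885_at, read 1.92 and 7.67 in wild type and 15.2 and 12.5 in the mutant, without a call (log2 1.10, adjusted p = 0.176). On these dim probe sets of Mlp60A both mutant groups lay above wild type of the same organ. Each of these probe sets passed the filter only through mutant groups.

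Most of the bright sarcomere genes gave no call between the genotypes in the spermathecae. Mlc1 read 955 and 968 in the mutant against 997 and 999 (log2 -0.05, 95% interval -0.40 to 0.29). Prm differed by 0.07 (-0.26 to 0.39), Actn by 0.12 (-0.21 to 0.45), RyR by 0.06 (-0.31 to 0.43) and bt by -0.26 (-0.60 to 0.08). These intervals do not reach a log2 difference of 1 in either direction. Larger differences without a call were those of Mlc2 and Zasp52. Mlc2 read 110.3 and 82.5 in the mutant against 131 and 175 (log2 -0.65, adjusted p = 0.128), and Zasp52 561 and 533 against 747 and 753 (log2 -0.45, adjusted p = 0.116). The Mlc2 difference was called without both arrays that stood apart. Genotypes without overlap were also seen for uncalled probe sets with small differences, among them those of Mlc1, Prm, Actn and bt named above.

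Whether the mutant effect differed between spermathecae and lower tract was tested directly. Such a difference was called for 2 of the 41 muscle probe sets, both larger in spermathecae, and 0 were called the other way, beside 1.76% and 1.29% of all tested. Strn-Mlck on 1634574_a_at had a difference of 1.39 (SE 0.245, adjusted p = 0.0151), and Mf on 1635372_a_at one of 1.43 (SE 0.26, adjusted p = 0.0172). Act87E followed with 0.99 (SE 0.249, adjusted p = 0.0737), which was called with quantile normalization and without wild-type spermathecae replicate 2. Mlp60A on 1626709_at gave 0.13 (95% interval -1.14 to 1.41), so its change was not shown to differ between the organs. Leaving out mutant spermathecae replicate 1 or mutant lower tract replicate 2 left 0 called, leaving out mutant spermathecae replicate 2 or mutant lower tract replicate 1 left 1, and leaving out wild-type spermathecae replicate 2 gave 5. Before adjustment the mutant effect in spermathecae minus that in the lower tract was above 0 for 6 muscle probe sets and below 0 for 2 at p below 0.05. These counts go by sign and not by the size of either effect.

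Other muscle genes, taken from lists that do not overlap the members, were lower in the spermathecae in part. Of 18 tested probe sets of other contractile genes 11 were lower and 3 higher in wild-type spermathecae, beside 21.5% and 22.2% of all tested, with a median of -0.84. Among the lower ones were the calponin Mp20 at -3.64 (SE 0.147) and the LIM protein Lmpt at -3.99, with -2.14 on its brightest probe set. The actin pointed-end regulator sals was at -3.21 and tropomodulin, tmod, at -3.09 on its brightest probe set. Of 10 calcium and excitation probe sets 7 were lower and 0 higher (median -1.82), with the glutamate receptor GluRIIA at -2.51, the potassium channel slo at -3.25 and the junctophilin jp at -2.36. Attachment and costamere genes were mixed, with 10 of 17 lower and 5 higher (median -0.54). The integrin subunit gene if differed by -2.08, and mew, another integrin alpha subunit, by 2.22.

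The non-muscle actin and myosin genes gave 3 of 8 lower and 2 higher in wild-type spermathecae (median -0.22), beside 21.5% and 22.2% of all tested. The light chain Mlc-c of non-muscle myosin was higher, at 4787 and 5483 against 1989.7 and 2331 (log2 1.25, SE 0.151, adjusted p = 0.000106), and the myosin phosphatase subunit gene Mbs was lower by -2.42 and -0.70 on its 2 probe sets. Of 7 tested probe sets of muscle transcription factors 2 were lower and 2 higher, near the same shares, the higher ones both of vg. This factor of flight muscle and wing read 1650.5 and 1565 in wild-type spermathecae on 1623484_at against 7.43 and 0.823 in the lower tract. In the mutant organs, beside 24.7% of all tested called higher and 21.5% lower, the 5 lists gave 12 lower and 2 higher of 18, 8 and 0 of 10, 10 and 3 of 17, 2 and 2 of 7, and 3 and 2 of 8, in the order contractile, calcium, attachment, transcription factor and non-muscle.

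In mutant spermathecae, against wild type, 3 of 18 other contractile probe sets rose and 2 fell, which is 27.8% of them beside 7.93% of all tested in either direction. The rises were 2 of the 3 probe sets of Fhos, a formin-related actin regulator, at 1.16 and 0.76 and the co-chaperone gene stv at 0.84. Lmpt fell by 0.93 on 1629499_at, from 57.0 and 52.6 to 32.7 and 22.0. Its brightest probe set differed by -0.02 and 1634439_at by 0.22, both without a call. Of the calcium genes 1 of 10 fell and 0 rose: Calx, the sodium-calcium exchanger, went from 229 and 222 to 48.1 and 47.9 (log2 -2.14, SE 0.204, adjusted p = 0.000181). In the lower tract Calx was not called, and its difference between the organs was called (log2 -1.77, SE 0.289, adjusted p = 0.0102). Attachment genes had 1 of 17 higher and 2 lower, 17.6% of the list. The rise was that of Scgbeta of the sarcoglycan complex, from a dim 2.4 and 13.2 to 50.6 and 38.8 (log2 2.20). The falls were mew at -0.67 and the dystrophin gene Dys at -0.60 on 1625988_a_at. The other mew probe set differed by -0.19 without a call. The brightest Dys probe set differed by -0.72 and 1638105_at by 0.54, both without a call. In the lower tract 1 of 18 contractile and 2 of 17 attachment probe sets were called higher and 0 lower, beside 2.47% and 3.33% of all tested. The 1 was tmod at 3.29 on 1639114_at, which read 19.4 and 2.65 in wild type and 120.1 and 115 in the mutant. This probe set passed the filter only through mutant groups, and the brightest tmod probe set differed by 0.06 without a call. The 2 were Tsp, a thrombospondin of muscle attachment sites, at 1.17 and the integrin beta subunit mys at 0.69. None of the 7 transcription factor and 8 non-muscle probe sets was called in a mutant comparison, and 0 of 10 calcium probe sets in the lower tract. Before adjustment 2 transcription factor probe sets were lower in spermathecae and 1 in the lower tract, 1 calcium probe set was higher in the lower tract, and 0 of the non-muscle probe sets reached p below 0.05.

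Markers of other cell types that a dissection can hold differed between the organs too. The summed signal of 6 spermathecal gland probe sets was 79720 to 108035 on the spermatheca arrays and 224 to 4334 on the lower tract arrays. All 6 were called higher in spermathecae in both genotypes, beside 22.2% of all tested in wild type and 24.7% in the mutant. Hemocyte probe sets were lower in wild-type spermathecae for 6 of 8 and higher for 1, the GATA factor srp, beside 21.5% and 22.2% of all tested. Their summed signals were 1936 to 2797 on the spermatheca arrays against 4632 to 5454 on the lower tract arrays. Fat body probe sets were lower for 4 of 7 and higher for 0, beside the same shares. In the mutant organs 0 of the 7 were lower in spermathecae and 1 higher, apolpp at 0.84, beside 21.5% and 24.7% of all tested. The mutant effect in spermathecae minus that in the lower tract was called above 0 for 3 of the 7, beside 1.76% of all tested. In the mutant lower tract the lipid transport gene apolpp fell by 1.39 and the lipid droplet gene Lsd-1 by 0.96, the 2 called of 7 fat body probe sets. The hemocyte receptor NimC1 rose by 2.82, the 1 called of 8 hemocyte probe sets (median 0.19). The synaptic gene nSyb rose by 2.54, the 1 called of 4 neuron probe sets (median -0.05), and passed the filter only through the mutant lower tract. Other markers gave no call, such as Pxn at -0.23 and elav at 0.08. Of all tested, 2.47% were called higher there and 3.33% lower. In mutant spermathecae Lsd-1 rose by 0.75, and Ppn, a papilin of the matrix, fell from 139 and 118 to 62.7 and 61.7. These were the 1 call of 7 fat body and the 1 call of 8 hemocyte probe sets, beside 4.04% of all tested higher and 3.89% lower. Neuron probe sets summed to 189 to 360 on all arrays, where 2 to 4 of 12 reached the array median. Of 4 tested 1 was lower in wild-type spermathecae, near the 21.5% of all tested. That 1, Snap25, passed the filter only through the wild-type lower tract. The germline list gave 3 of 4 lower in wild-type spermathecae and 1 of 4 in the mutant, beside 21.5% of all tested in each genotype. Of the 3, osk read 556 and 20.8 and CycB 1134 and 88.2 in the wild-type lower tract, high on replicate 1. Both osk and CycB passed the filter only through that group. The part of these cells in the muscle results was not tested.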

How the data were processed

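The deposited values are linear intensity values of Affymetrix probe sets. The submitters' processing notes name MAS5 without a version. Every array's mean without its lowest and highest 2% of probe sets was 150.01, so the authors had scaled the arrays alike. Detection calls were not used here. Precision is limited by there being 2 arrays a group. The 183 control probe sets were left out, and 13647 of the other 18769 carry 1 symbol. The members and lists were chosen with earlier results of these data known, and so was the added value of 4. The filter kept the 10113 probe sets that, in 1 or more groups, reached the median of the array on each of the 2 arrays. Differences were fitted across all of them with limma 3.58.1 in R 4.3.3 (lmFit, eBayes with trend), all 8 arrays sharing 1 model of group means, 4 residual and 5.75 prior degrees of freedom, two-sided, and Benjamini-Hochberg adjustment within each of 5 comparisons. The script was tested on simulated data. All 26 measured genes are named, each by its brightest probe set over the 8 arrays, with every called probe set of a mutant comparison, and up to 4 called probe sets by adjusted p from each other list. The reference annotation served only for gene names. No sequence is printed, since none was given. Alternatives were the added value, scaling, filter, variance model, arrays in the fit, a replicate block and leaving out arrays.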

Additional observations from a re-analysis of the deposited data

Results flagged for a closer look

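Muscle probe sets whose mutant effect differed between the organs numbered 2 in the limma test of the difference itself. Strn-Mlck on 1634574_a_at rose in mutant spermathecae and was not called in the lower tract, with a difference of 1.39 on the log2 scale (SE 0.245, adjusted p = 0.0151). Mf on 1635372_a_at was higher in the mutant in both organs, by 1.43 more in the spermathecae (SE 0.26, adjusted p = 0.0172). The wild-type lower tract signal of this Mf probe set, at 3512 and 4534, was well below the highest signals on the lower tract arrays. The mutant signal of 11668 and 9184 was near them, and whether that limits the lower tract difference was not tested.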

How the results depend on the processing

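Between the organs, the counts of 40 and 38 lower muscle probe sets stayed within 1.5 times under every alternative, at 36 to 40 and 35 to 39 with 1 array left out, and 0 higher in each such fit. Of 90 called differences, 1521 of 1605 values under alternatives kept direction and call, 84 kept direction and lost the call, and 0 changed direction. In mutant spermathecae the 6 higher and 1 lower became 2 to 8 and 0 to 2 with 1 array left out. The lower count was 0 with no variance trend and 2 with a replicate block. In the lower tract the 3 higher became 1 with no filter and 1 to 4 with 1 array left out, and the 0 lower became 1 in a fit of only the 4 arrays compared. The difference between the organs was called for 0 with no variance trend and for 0 to 5 with 1 array left out, the 5 without wild-type spermathecae replicate 2, and 0 when mutant spermathecae replicate 1 or mutant lower tract replicate 2 was dropped. The cause was not tested. The original and duplicate arrays share only a label: their deviations correlated by -0.03 to 0.03 between groups, and the replicate block changed no other count of calls by over 1.5 times. Median centring moved the median organ difference of all probe sets in wild type from 0.07 to 0.24 and quantile normalization to 0.18, with muscle medians of -2.92 and -3.21. Leaving out both wild-type originals was chosen after seeing the data. Dim probe sets near the added value, such as those of Mlp60A and TpnC41C, have sizes that depend on it.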
